A study of Mus musculus with 21 samples.

Results

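When leukaemia inhibitory factor (LIF) and the inhibitor pair called 2i are taken away, mouse embryonic stem cells (ESCs) are known to leave the naive state, and the change in their transcripts over 24 h is described here. The comparison holds 6 of the 21 libraries of the series. Of these, 3 libraries are wild type ESCs at 0 h (ESC_0h, called the starting cells below), kept on gelatin-coated dishes in medium with serum, LIF and 2i, which is PD0325901 at 1 µM plus CHIR99021 at 3 µM. The other 3 are wild type ESCs after 24 h without LIF and 2i and without added retinoic acid (noRA_24h, called the withdrawn cells). PD0325901 blocks MEK, the kinase that activates ERK, and CHIR99021 blocks the kinase GSK3 and so raises WNT signalling. Levels after 12 h without LIF and 2i (noRA_12h, 3 libraries) are given in places as a description only. The labels name no line or clone beyond ESC and do not say whether replicates were separate cultures. The p-values here thus capture just the scatter within the 5 groups of the time course, 15 libraries that include cells given retinoic acid. That scatter may be technical. The libraries include no ESCs held in LIF and 2i over the same 24 h, so removal and time in culture cannot be told apart.

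Naive ESCs correspond to the epiblast of the blastocyst before implantation. LIF acts through its receptor and STAT3 to keep naive transcription factors such as Klf4 and Tfcp2l1 active, and 2i holds FGF to ERK signalling low and WNT signalling high. Once these supports are removed, cells are known to pass into a formative state like that of the early epiblast after implantation, marked by Otx2, Pou3f1, Fgf5 and new DNA methyltransferases, before they can form germ layers.

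RNA levels are in TPM, a unit scaled for transcript length and library size, and differences are given on the log2(TPM + 1) scale, withdrawn minus starting cells, with their standard error (SE). A single level per group is the mean of its 3 libraries, and ± gives the SD (n = 3). The 6 libraries held an estimated 2.96 to 3.39 gigabases of aligned sequence and 12384 to 12945 genes at 1 TPM or more. Of 32285 genes listed, 13948 had at least 1 TPM in 3 or more of the 15 time course libraries and were tested with limma. Pearson r of log2(TPM + 1) was 0.991 to 0.993 within the starting cells, 0.992 to 0.994 within the withdrawn cells and 0.930 to 0.942 between them. Base composition moved with the groups. Across genes, the deviation of a library from the mean of all libraries correlated with GC content at r from -0.505 to -0.418 in the withdrawn cells and from -0.162 to 0.113 in the starting cells. Where a correction for GC content and length altered a count of more than 2 list members by more than 1.5 times, that value stands beside it. With that correction 260 of 277 named genes stayed on the same side of the threshold, 5 lost their call and 12 gained one. In bulk RNA, fewer cells of a type and less RNA per cell cannot be told apart.

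The 3 genes that mark this transition went the way its name says. Otx2 (ENSMUSG00000021848), a homeobox factor of the formative state that lies on chromosome 14 from 48657677 to 48673819 in mm10, stood at 3.45, 4.23 and 3.6 TPM in the starting cells and 167, 174 and 162 TPM in the withdrawn cells. Pou3f1 (ENSMUSG00000090125), a POU factor on chromosome 4 from 124656807 to 124660655, stood at 0.68, 1.03 and 0.596 TPM in the starting cells and 55.6, 52.2 and 47 TPM in the withdrawn cells. Tfcp2l1 (ENSMUSG00000026380), a naive factor on chromosome 1 from 118627945 to 118685168, stood at 205, 206 and 229.7 TPM in the starting cells and 21, 22.9 and 20.8 TPM in the withdrawn cells. In none of these genes did a library of one group reach the range of the other. The differences were 5.15 (SE 0.10), 4.90 (SE 0.13) and -3.25 (SE 0.10), with limma adjusted p = 8.83e-13, 9.26e-12 and 1.88e-11.

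Across the transcriptome, 3547 genes (25.4% of those tested) were higher and 3697 (26.5%) were lower in the withdrawn cells at a Benjamini-Hochberg adjusted p below 0.05. By 2-fold or more, 1137 genes (8.15%) were higher and 883 (6.33%) were lower. All withdrawn libraries lay above all starting libraries in 33.9% of genes and below them in 31.4%. The median difference over all genes was 0.03. Below, rose, fell, higher, lower and called refer to this threshold, and the limma adjusted p of every gene so named was 0.0405 or less. A call alone is common here, and the counts for gene groups below are to be read against these shares. The plot of gene lists shows how each group lay around 0.

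**Figure D1:**
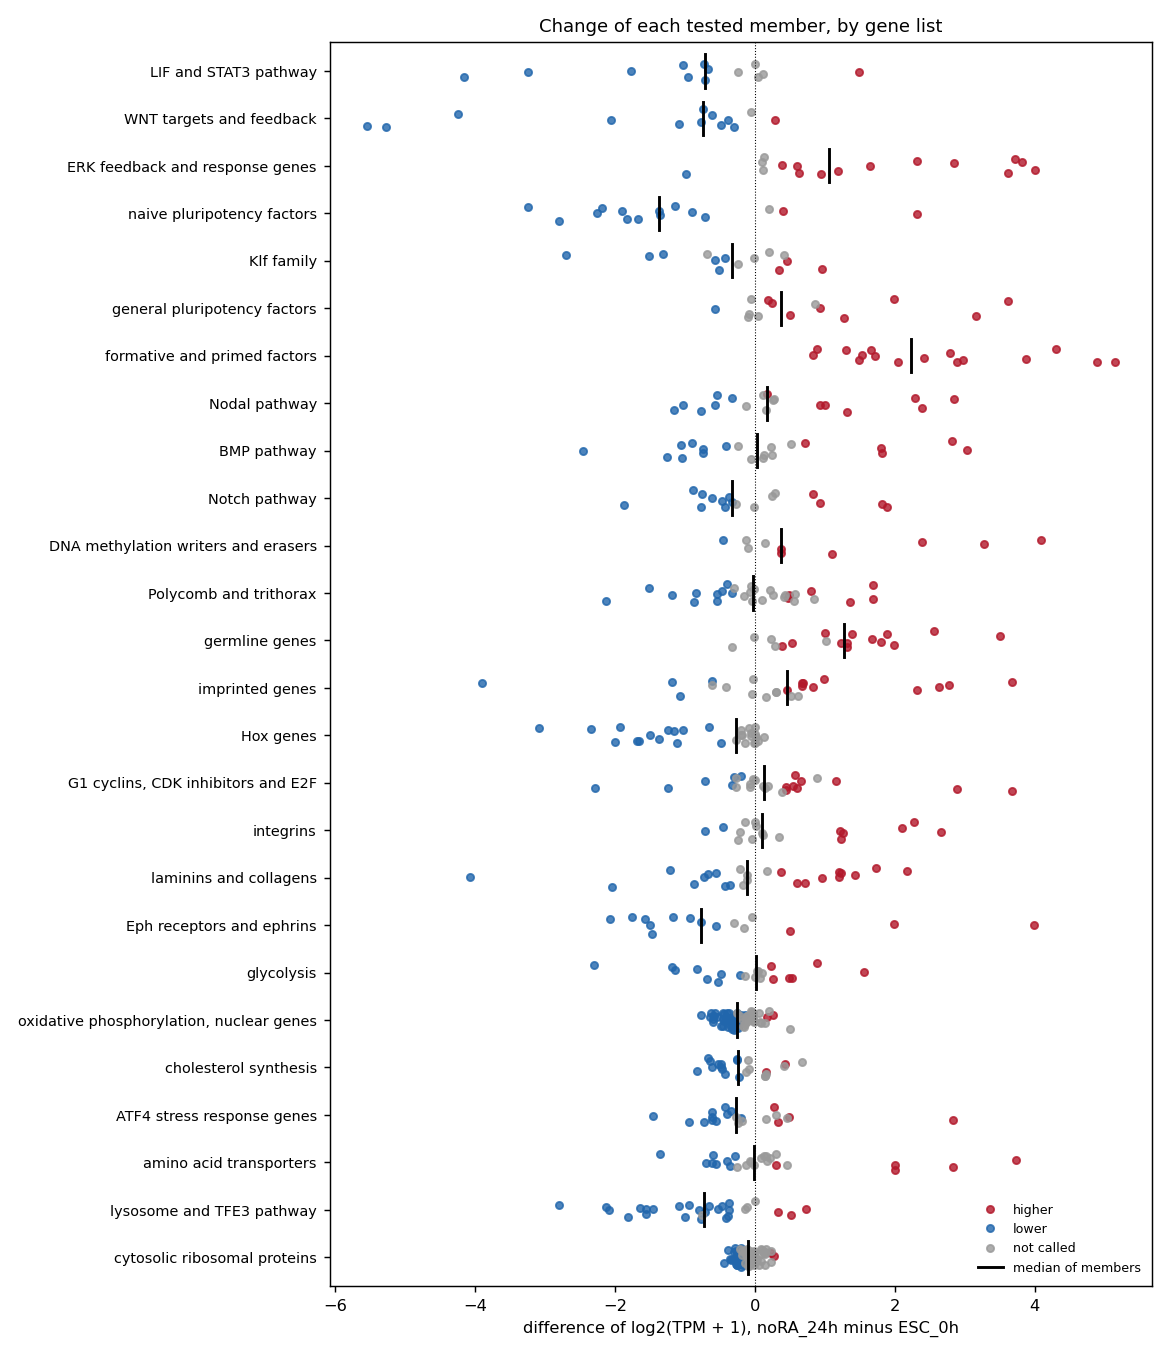
Difference of log2(TPM + 1), withdrawn minus starting cells (x axis), for every tested member of the main gene lists (y axis). Each point is a gene, red where called higher, blue where called lower and grey where not called, and the black bar is the median of the list. The formative list lies wholly to the right (median 2.23), while the naive (median -1.38) and lysosome lists (median -0.73) lie mostly to the left.

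Several genes that LIF and STAT3 are known to induce fell. Socs3, the feedback inhibitor that STAT3 induces, stood at 167, 150.5 and 159 TPM in the starting cells and 9.17, 6.88 and 7.79 TPM in the withdrawn cells. Bcl3, an IκB family cofactor, stood at 121, 94.2 and 108 TPM before withdrawal and 12, 11.1 and 8.33 TPM after it. Stat3 itself, which STAT3 also induces, went from 79.3 ± 7.6 to 22.4 ± 0.217 TPM. The withdrawn libraries of these 3 genes all lay below the starting ones, with differences of -4.16 (SE 0.14), -3.25 (SE 0.14) and -1.77 (SE 0.08). Of 13 tested members of this list 8 were lower (61.5%, against 26.5% of all genes) and 1 was higher, with a median of -0.71. Among the receptors, Il6st, the shared signalling subunit gp130, fell by 0.73 (SE 0.14). The ligand-specific subunit Lifr, at 9.55, 9.54 and 13.7 TPM before and 12.6, 9.16 and 11.8 TPM after, was not called (0.04, SE 0.31), and neither was the kinase gene Jak1 (0.12, SE 0.34). The kinase genes Pim1 and Pim3 fell, with differences of -0.68 (SE 0.09) and -0.71 (SE 0.10). Socs2, another member of the SOCS family, was the exception and rose by 1.49 (SE 0.12), from 10.1 to 30.1 TPM. Gbx2, a homeobox gene known as a STAT3 target, stood at 29.6 TPM before and 29.6 TPM after and was not called. It was called higher with a correction for GC content and length (0.18, limma adjusted p = 0.02385).

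WNT response genes fell too. Sp5, a zinc finger factor induced by beta-catenin, stood at 54.9, 42.1 and 50.5 TPM in the starting cells and 0.103, 0.0936 and 0 TPM in the withdrawn cells. Axin2, the feedback scaffold of the beta-catenin destruction complex, stood at 61.6, 55.1 and 60.6 TPM before withdrawal and 13.3, 14.1 and 12.6 TPM after it. Cdx1, a caudal homeobox gene of the same response, went from 64.5 ± 4.41 to 0.691 ± 0.0443 TPM. Every withdrawn library of these genes was below every starting library, with differences of -5.55 (SE 0.14), -2.07 (SE 0.09) and -5.27 (SE 0.12), and the homeobox gene Nkx1-2 fell by 4.24 (SE 0.14). In this list 11 of 13 tested members were lower (84.6%, against 26.5% of all genes). The 1 higher member was Sp8 (0.28, SE 0.10), which stayed below 1 TPM. That call was lost without ESC_0h replicate 2 or 3 or without any 1 of the withdrawn libraries (limma adjusted p = 0.0626 to 0.104). Ccnd1, cyclin D1, fell by only 0.30 (SE 0.08), and Znrf3, a ligase that removes WNT receptors, was not called (-0.06, SE 0.13).

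Promoter sequence is shown for the WNT and STAT3 response genes whose window holds the motif of their factor. The windows are the 250 bases before the start site from RefSeq (GRCm38.p6, + strand), 5′ to 3′, with the motif in capitals.
Sp5, chr2:70474673-70474922: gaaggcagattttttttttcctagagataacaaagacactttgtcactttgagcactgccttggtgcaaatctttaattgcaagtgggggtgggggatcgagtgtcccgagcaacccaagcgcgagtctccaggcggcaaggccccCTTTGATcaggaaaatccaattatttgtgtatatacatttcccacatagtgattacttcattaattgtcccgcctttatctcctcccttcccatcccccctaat
Icam1, chr9:21015690-21015939: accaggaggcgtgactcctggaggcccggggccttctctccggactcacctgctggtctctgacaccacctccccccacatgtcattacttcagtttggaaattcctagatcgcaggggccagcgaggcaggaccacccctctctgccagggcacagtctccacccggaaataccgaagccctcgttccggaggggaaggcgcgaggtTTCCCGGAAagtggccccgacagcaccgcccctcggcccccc
In Sp5 the capitals mark CTTTGAT, a form of the TCF/LEF site, which begins 104 bases before the start. In Icam1, an adhesion molecule that fell by 1.03 (SE 0.09) from 96.1 to 46.7 TPM, they mark a match to the STAT motif TTCCNGGAA that begins 42 bases before the start. Searched on both strands over 250 bases before to 50 after the start, CTTTGAT was found in 1 of 9 WNT list members in the table and in 4.29% of all 27025 genes. TTCCNGGAA was found in 1 of 13 STAT3 list members and in 1.35% of all genes. The ETS motif CCGGAAGT was found in 0 of 12 ERK list members and in 4.31% of all genes. A match is a description of letters and not a site shown to be bound.

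Receptors and other components of the WNT pathway moved in both directions. Among receptors, Fzd10 stood at 57.4, 48 and 49.7 TPM in the starting cells and 2.09, 1.84 and 1.67 TPM in the withdrawn cells, whereas Fzd7 stood at 14, 14.9 and 13.7 TPM in the starting cells and 58.9, 61.7 and 52.3 TPM in the withdrawn cells. So Fzd10 fell by 4.2 (SE 0.11), and Fzd7, with 48, 49.8 and 48.9 TPM already at 12 h, rose by 1.95 (SE 0.08). Fzd5 and the co-receptor Lrp5 fell, with differences of -1.18 (SE 0.08) and -0.95 (SE 0.08), and Lrp6 was not called (0.24, SE 0.31). The secreted inhibitors also parted, with Sfrp1 falling from 52.5 to 8.59 TPM (-2.48, SE 0.07), Dkk3 falling from 9.14 to 1.12 TPM (-2.26, SE 0.11) and Sfrp2 going from 3.69 to 9.79 TPM (1.21, SE 0.10). Ligands were low, and of 19 Wnt genes 9 passed the filter. Of these 4 were lower (44.4%, against 26.5% of all genes), led by Wnt11 (-1.84, SE 0.20). Another 3 were higher (33.3%, against 25.4%). They were led by Wnt5a, at 0, 0.304 and 0.0841 TPM before and 1.46, 1.55 and 1.04 TPM after. Of the DNA-binding partners, Lef1 stood at 20.2, 16.5 and 17.9 TPM at 0 h, 10.2, 9.6 and 8.69 TPM at 12 h and 79.7, 80.4 and 73.3 TPM at 24 h, and so was lowest at 12 h and highest at 24 h. Its rise over 24 h was 2.04 (SE 0.13), against -0.61 (SE 0.08) for Tcf7 and 0.35 (SE 0.08) for Tcf7l1, the repressor that CHIR99021 is known to relieve. Beta-catenin itself (Ctnnb1) went from 492 to 591 TPM (0.26, SE 0.07).

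ERK response genes moved the other way. Spry4, an inhibitor of receptor tyrosine kinase signalling, stood at 2.06, 2.42 and 2.34 TPM in the starting cells and 53, 55.1 and 47.4 TPM in the withdrawn cells. Dusp6, the phosphatase that inactivates ERK, stood at 3.72, 4.83 and 4.98 TPM before withdrawal and 74.1, 78.9 and 75.9 TPM after it. Egr1, an immediate early transcription factor, stood at 0.0495, 0.073 and 0.227 TPM before withdrawal and 13.8, 12.5 and 11.9 TPM after it. None of these genes overlapped between groups, and the differences were 4.01 (SE 0.07), 3.82 (SE 0.09) and 3.62 (SE 0.11). Dusp4, Phlda1 and Etv1 rose by 3.72 (SE 0.08), 2.84 (SE 0.08) and 2.32 (SE 0.27). In all 12 of 16 tested members were higher (75%, against 25.4% of all genes) and 1, Dusp14, was lower. Family members did not move alike. Etv5, at 248 TPM the most abundant of the list at 0 h, and Spry2, at 47.7 TPM, were not called (0.13, SE 0.07, and 0.12, SE 0.06), while Etv4 rose by 0.63 (SE 0.08). Etv5 was called higher with a correction for GC content and length (0.21, limma adjusted p = 0.000866).

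**Figure D2:**
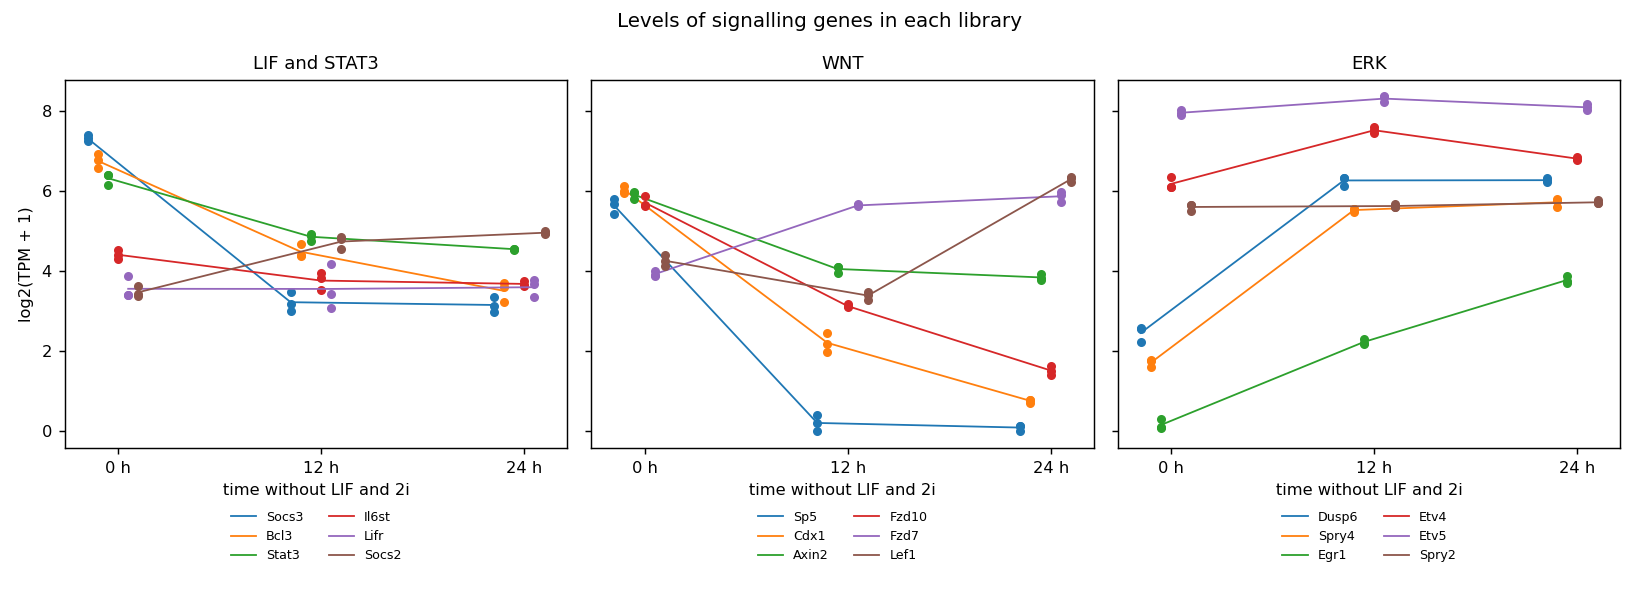
Levels as log2(TPM + 1) (y axis) of 6 genes each of the LIF and STAT3, WNT and ERK groups at 0 h, 12 h and 24 h without LIF and 2i (x axis). Points are libraries, 3 per time, and lines join the means. Socs3, Sp5 and Cdx1 drop and Dusp6 and Spry4 climb mainly before 12 h, while Lifr, Etv5 and Spry2 stay near their starting levels.

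FGF genes, whose products signal through ERK, changed unevenly. Fgf4, the main FGF of ESCs, was already at 129, 126 and 124 TPM in the starting cells and reached 185, 175 and 179.7 TPM, a rise of 0.51 (SE 0.08). Fgf5 was listed at 0, 0 and 0 TPM at 0 h, 0.482, 0.694 and 1.27 TPM at 12 h and 13.6, 15 and 12.5 TPM at 24 h. Fgf15, a ligand of the endocrine FGF branch, went from 2.34, 2.17 and 2.33 TPM through 10.2, 10.3 and 11.5 TPM at 12 h to 66.3, 64.3 and 69.2 TPM. Fgf5 and Fgf15 thus reached most of their level after 12 h, and the rise of Fgf15 was 4.36 (SE 0.13). Fgf10 and Fgf3 fell, with differences of -1.23 (SE 0.10) and -1.07 (SE 0.15), and 12 of 22 ligand genes did not pass the filter. The main receptor Fgfr1 went from 60.7 to 53.6 TPM and was not called (-0.17, SE 0.09). Of 5 receptor genes 0 were higher and 2 were lower (40%, against 26.5% of all genes), led by Fgfr3 (-0.70, SE 0.17).

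The naive factors fell by very different amounts. Esrrb, an orphan nuclear receptor that GSK3 inhibition sustains, stood at 670.3, 550.0 and 585 TPM in the starting cells and 123, 136 and 115 TPM in the withdrawn cells. Nanog stood at 507, 549 and 526 TPM before withdrawal and 158, 172 and 162 TPM after it. Tbx3, a T-box factor, was at 98.3, 91 and 97.3 TPM at 0 h, 93.5, 98.6 and 97 TPM at 12 h and 21.2, 19.98 and 19.6 TPM at 24 h. Esrrb and Nanog fell, with differences of -2.26 (SE 0.10) and -1.68 (SE 0.07) and kept over 100 TPM, while Tbx3 stood near its starting level at 12 h and was 2.18 (SE 0.06) lower at 24 h. Nr5a2, at a mean of 23.6 TPM at 0 h and 20.1 TPM at 12 h, was also late, with 5.58 TPM at 24 h. Prdm14, which represses FGF signalling and DNA methyltransferase genes, fell by 1.84 (SE 0.10). Spic, an ETS factor, went from 4.96, 6.16 and 8.51 TPM to 0, 0 and 0.191 TPM. Of 15 members 12 were lower (80%, against 26.5% of all genes), and 3 stood apart. Zfp42, known as Rex1, had 286, 349 and 360.2 TPM before and 357, 398 and 385 TPM after and was not called (0.20, SE 0.12). Zfp57, which protects imprints, rose by 0.40 (SE 0.07), or by 0.15 and no longer called after a correction for GC content and length (limma adjusted p = 0.121), and Nr0b1 rose by 2.32 (SE 0.10), to 171, 181 and 175 TPM.

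Within the Klf family, factors that can hold the naive state fell in unequal measure. Klf4, a direct STAT3 target, stood at 149, 153 and 167 TPM in the starting cells and 23.8, 23.9 and 21.8 TPM in the withdrawn cells. Klf2, which ERK signalling is known to destabilise, stood at 245, 196 and 217 TPM before withdrawal and 83.3, 77.4 and 67.9 TPM after it. Klf5 stood at 110.2, 107 and 116 TPM before withdrawal and 84.2, 83.1 and 80.1 TPM after it. Klf4 and Klf2 were clearly apart between groups (-2.70, SE 0.07, and -1.51, SE 0.12), and Klf5 was lower by much less (-0.42, SE 0.05). Of 14 tested members 6 were lower (42.9%, against 26.5% of all genes) and 3 higher (21.4%, against 25.4%), led by Klf12 (0.95, SE 0.32). The call of Klf12 was lost without ESC_0h replicate 1 or 3 or noRA_24h replicate 1 (limma adjusted p = 0.0654 to 0.0954). With a correction for GC content and length 1 member was higher.

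Of 14 factors shared by naive and later pluripotent cells, 8 were higher (57.1%, against 25.4% of all genes). Of the others 1 was lower and 5 were not called. Pou5f1, which encodes OCT4, stood at 2438, 2281 and 2245 TPM in the starting cells and 2805, 2717 and 2757 TPM in the withdrawn cells. Sox2 stood at 208, 209 and 224 TPM before withdrawal and 205, 211 and 200.3 TPM after it. The rise of Pou5f1 was small (0.25, SE 0.07) and its call was lost with median-of-ratios scaling (limma adjusted p = 0.059). Sox2 and the zinc finger gene Sall4 were not called (-0.06, SE 0.06, and -0.10, SE 0.06). Sox2 was called lower with a correction for GC content and length (-0.16, limma adjusted p = 0.0102). Against this, Utf1, a chromatin-bound factor, stood at 50.2, 40.9 and 47.1 TPM before withdrawal and 588, 568 and 567 TPM after it. Dppa2 and Dppa4, which form a chromatin complex, rose by 3.17 (SE 0.12) and 1.99 (SE 0.10), and the RNA-binding protein gene Lin28a rose by 1.27 (SE 0.07), from 70.7 to 172 TPM. Gdf3, a Nodal-related ligand, was the 1 member that fell (-0.58, SE 0.08).

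All 16 members of the formative and primed list were higher, against 25.4% of all genes, and 14 were so by 2-fold or more. This list was chosen with earlier results of these data known, so its count is a description and not a test. Grhl2, a Grainyhead factor of epithelial enhancers, stood at 1.2, 2.02 and 1.56 TPM in the starting cells and 49.9, 51.5 and 48.5 TPM in the withdrawn cells. Zic2, a zinc finger factor, went from 9.75 ± 0.542 to 78.5 ± 4.36 TPM. Foxd3, a forkhead factor, went from 14.9, 12.5 and 14.3 TPM through 42.8, 54.1 and 47.3 TPM at 12 h to 40.0, 34.9 and 32.7 TPM. Their rises were 4.31 (SE 0.11), 2.89 (SE 0.09) and 1.30 (SE 0.10), and Foxd3 alone of these 3 stood higher at 12 h than at 24 h in every library. The smallest rise of the list was that of Lin28b (0.82, SE 0.28), at 0.311 to 1.33 TPM, and its call was lost without ESC_0h replicate 1 or 2 or noRA_24h replicate 2 or 3 (limma adjusted p = 0.0572 to 0.0831). Sall2, Tcf15 and Sox3 rose by 1.53 (SE 0.11), 1.66 (SE 0.13) and 1.48 (SE 0.15).

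**Figure D3:**
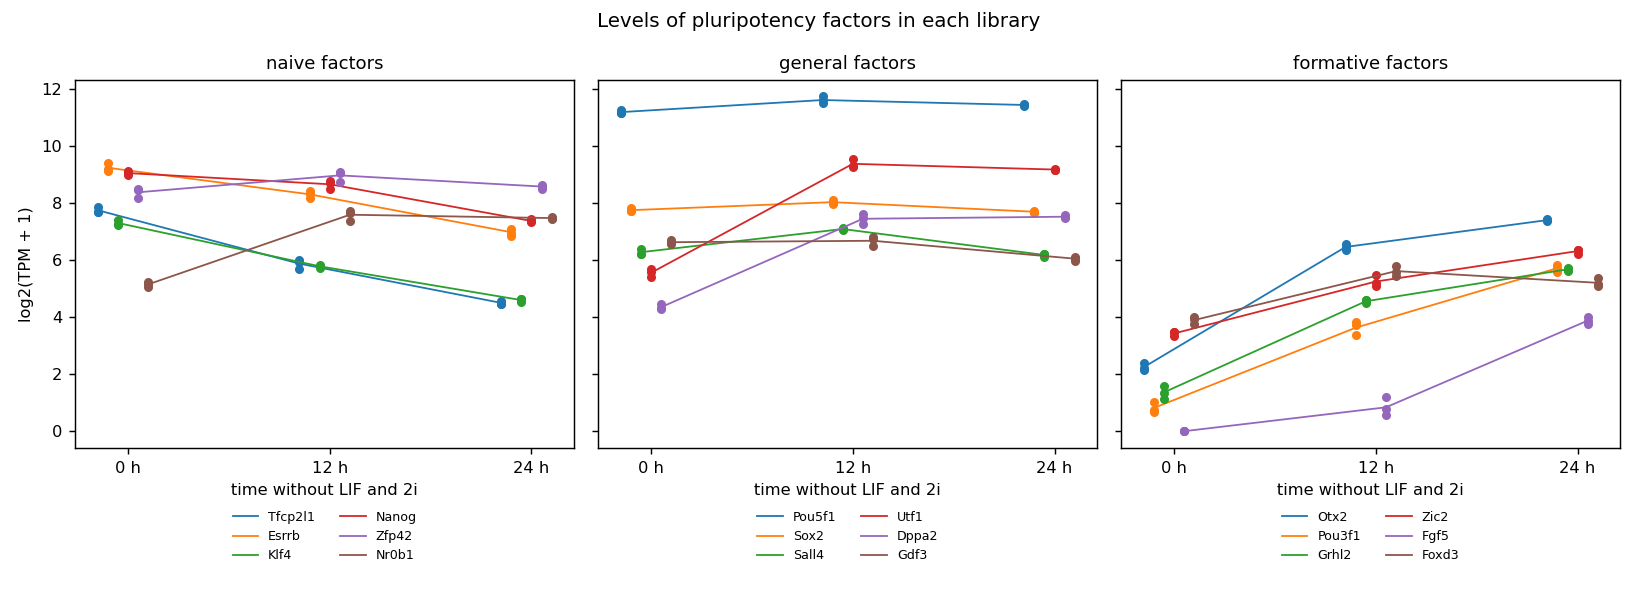
Levels as log2(TPM + 1) (y axis) of naive, general and formative factors at 0 h, 12 h and 24 h without LIF and 2i (x axis), with 1 point per library and lines through the means of 3. Naive factors decline except Zfp42 and Nr0b1, Pou5f1 and Sox2 end within 0.25 of their start, and Otx2, Pou3f1 and Grhl2 climb by over 4 units.

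Other transcription factor families changed members. Among POU genes, Pou2f3 fell from 45.1 to 7.56 TPM (-2.43, SE 0.10) as Pou3f1 rose, and Pou2f2 rose from 0.341 to 3.98 TPM (1.88, SE 0.22). Sox4 and Sox11, SOXC factors, rose by 2.45 (SE 0.11) and 1.83 (SE 0.14), to 27.2 and 4.31 TPM, while Sox1, a neural marker, fell by 0.80 (SE 0.12), to 1.11 TPM. Of the nuclear receptors, Rarg, the retinoic acid receptor gamma, stood at 30.4, 27.2 and 28.5 TPM in the starting cells and 286, 273 and 268 TPM in the withdrawn cells. That rise of 3.22 (SE 0.07) was the largest of the 23 tested receptors. Nr6a1, also known as GCNF, rose by 1.5 (SE 0.11), while Ppard fell by 1.07 (SE 0.10). Crabp2, a carrier of retinoic acid into the nucleus, rose by 2.11 (SE 0.11), and the RA-making enzyme Aldh1a3 fell by 1.30 (SE 0.17).

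Nodal signalling maintains the epiblast after implantation, and here genes of its feedback moved in both directions. Nodal itself stood at 49.1, 40.0 and 46.3 TPM in the starting cells and 51.2, 49.8 and 49.9 TPM in the withdrawn cells and was not called (0.16, SE 0.13), but was called higher with a correction for GC content and length (0.27, limma adjusted p = 0.00679). Lefty1, a secreted inhibitor that Nodal induces, stood at 2.73, 2.35 and 2.06 TPM before withdrawal and 26.4, 20.9 and 22.6 TPM after it. Skil, a SMAD corepressor, stood at 4.41, 5.42 and 8.53 TPM before withdrawal and 35.1, 27.8 and 44.9 TPM after it. Lefty1 and Skil did not overlap between groups and rose by 2.85 (SE 0.14) and 2.39 (SE 0.64), and Lefty2 rose by 2.29 (SE 0.08). Smad7, the inhibitory SMAD of the pathway, fell by 0.77 (SE 0.09). The co-receptor gene Tdgf1, known as Cripto, rose from 430.4 to 819 TPM (0.93, SE 0.07). The type I receptor Acvr1b and the convertase Furin fell, with differences of -1.16 (SE 0.08) and -1.03 (SE 0.10). In all 7 of 18 members were higher (38.9%, against 25.4% of all genes) and 6 lower (33.3%, against 26.5%).

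Among BMP targets 3 of the Id genes rose, while Id4 and Msx2 fell. Id1, an inhibitor of bHLH factors, stood at 11.6, 8.35 and 11 TPM in the starting cells and 82.3, 75.1 and 76.8 TPM in the withdrawn cells, and Id3 stood at 5.8, 6.02 and 4.12 TPM before withdrawal and 50.0, 48.6 and 52.5 TPM after it. Their rises were 2.82 (SE 0.12) and 3.04 (SE 0.12), and Id2 rose by 1.82 (SE 0.19), whereas Id4 and the homeobox gene Msx2, both low throughout, fell, with differences of -1.25 (SE 0.15) and -1.05 (SE 0.15). The ligand genes crossed. Bmp4 was at 2.67, 3.61 and 3.66 TPM at 0 h, 31.4, 33.8 and 33.6 TPM at 12 h and 14.1, 14.3 and 13.4 TPM at 24 h, highest at 12 h, and rose over 24 h by 1.80 (SE 0.11). Bmp7 fell from 12.5 to 1.45 TPM (-2.46, SE 0.12). The inhibitors Fst and Smad6, the latter itself induced by BMP, fell, with differences of -1.06 (SE 0.13) and -0.75 (SE 0.10). Over the 20 tested members, 5 were higher (25%, against 25.4% of all genes) and 8 lower (40%, against 26.5%).

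In the Notch pathway, the target Hes1 stood at 60.0, 62.6 and 59.1 TPM in the starting cells and 16.4, 18.4 and 12.9 TPM in the withdrawn cells and fell by 1.88 (SE 0.12). Nrarp, another target, fell by 0.89 (SE 0.13). Rbpj, the DNA-binding partner of the receptors, went the other way, from 60.4 ± 6.34 to 225 ± 8.97 TPM (1.88, SE 0.22), as did the ligand Dll1 (1.82, SE 0.14). Members called lower numbered 9 of 17 (52.9%, against 26.5% of all genes), or 5 with a correction for GC content and length. Of the Hippo pathway, Tead1 and Tead4, the factors through which YAP acts, fell, with differences of -1.97 (SE 0.40) and -1.71 (SE 0.10), while Tead2, at 85.3 TPM the most abundant TEAD gene at 0 h, was not called (0.09, SE 0.11) except with that correction, where it was higher (0.35, limma adjusted p = 0.00155). The targets Ccn1 and Ccn2 parted, with Ccn1 falling from 11.4 to 5.29 TPM and Ccn2 going from 4.79 to 11.4 TPM. In the Hedgehog pathway the factor gene Gli2 fell by 1.23 (SE 0.10), and the ligand genes Shh, Ihh and Dhh did not pass the filter.

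The enzymes that set new DNA methylation rose. Dnmt3a, an enzyme that sets new methyl marks, stood at 8.93, 9.23 and 10.3 TPM in the starting cells and 195, 171 and 168 TPM in the withdrawn cells. Dnmt3b, its partner in this role, stood at 82.1, 77.5 and 79.8 TPM before withdrawal and 443, 424 and 396 TPM after it. Dnmt3l, the cofactor without catalytic activity, stood at 168, 153 and 156 TPM before withdrawal and 1569, 1544 and 1556 TPM after it. Groups were far apart for all 3 genes, with differences of 4.09 (SE 0.08), 2.38 (SE 0.06) and 3.28 (SE 0.07). The maintenance enzyme Dnmt1 was not called (-0.10, SE 0.06), and its cofactor Uhrf1 fell by 0.46 (SE 0.08), while the related Uhrf2 rose by 1.11 (SE 0.12). Neither Tet1 nor Tet2, which oxidise the mark, was called (-0.13, SE 0.60, and 0.14, SE 0.67).

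Germline genes, many of which carry promoter methylation in somatic cells, rose as well. Of 18 tested members 13 were higher (72.2%, against 25.4% of all genes) and 0 lower, with a median of 1.27. Mael, of the piRNA pathway, stood at 5.43, 4.33 and 4.46 TPM in the starting cells and 61.1, 66.4 and 65.2 TPM in the withdrawn cells. Dazl, an RNA-binding protein of germ cells, went from 3.92 ± 1.02 to 18.5 ± 3.61 TPM, and Slc25a31, a testis ADP/ATP carrier, from 0.771 ± 0.186 to 9.39 ± 0.616 TPM. The differences of these genes were 3.51 (SE 0.09), 1.99 (SE 0.56) and 2.56 (SE 0.13). Piwil2, Taf7l and Tex11 rose by 1.80 (SE 0.07), 1.68 (SE 0.27) and 1.89 (SE 0.48).

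Chromatin complexes of the Polycomb and trithorax groups showed no common direction, with a median of -0.03. Of 30 genes 6 were higher (20%, against 25.4% of all genes) and 10 lower (33.3%, against 26.5%). Without 4 libraries of other groups that stood apart, 11 were higher. Accessory subunits of PRC2 parted, with Jarid2 at 86.2, 76.9 and 90.6 TPM in the starting cells and 276, 301 and 246 TPM in the withdrawn cells and Phf19 going from 2.64 ± 0.391 to 10.7 ± 0.767 TPM (1.68, SE 0.11, and 1.69, SE 0.12), whereas Mtf2 was not called (-0.02, SE 0.64) and Phf1 fell by 0.47 (SE 0.14), a call lost with the GC content and length correction or without ESC_0h replicate 3 (limma adjusted p = 0.169 and 0.0581). The core subunits Suz12 and Eed, and the enzyme Ezh2, were not called (0.26, SE 0.63, 0.43, SE 0.22, and 0.58, SE 0.24). Without the same 4 libraries Eed and Ezh2 were called higher at the same differences (limma adjusted p = 0.000657 and 0.000185), and Ezh2 was called in 5 other alternatives and Eed in 2. In PRC1 the readers Cbx8 and Cbx2 fell, with differences of -1.52 (SE 0.15) and -0.54 (SE 0.08), whereas Cbx7, the main reader of ESCs, was not called (0.10, SE 0.08), but was called higher with the GC content and length correction (0.35, limma adjusted p = 0.000159). Kdm2b, which brings a PRC1 form to CpG islands, rose by 1.36 (SE 0.07).

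Imprinted genes, which are read from 1 parental allele, included large changes in both directions. Cdkn1c, a CDK inhibitor, stood at 1.78, 2.27 and 2.08 TPM in the starting cells and 38.7, 39 and 35.6 TPM in the withdrawn cells. Plagl1, a zinc finger factor, stood at 37.1, 35.9 and 54.9 TPM before withdrawal and 2.15, 1.77 and 1.67 TPM after it. Peg10, a domesticated retroelement gene, and Mest went from 43.6 ± 5.72 to 274 ± 22 TPM and from 20.1 ± 1.4 to 144 ± 6.21 TPM. Cdkn1c, Peg10 and Mest rose by 3.67 (SE 0.14), 2.63 (SE 0.16) and 2.78 (SE 0.07), and Plagl1 fell by 3.90 (SE 0.47), with no overlap between groups in any of the 4. The noncoding RNA Meg3 fell by 1.19 (SE 0.15), from 110.0 to 47.6 TPM, and Snrpn, which shares its transcript with Snurf, rose by 2.32 (SE 0.06). Of 23 tested members 10 were higher (43.5%, against 25.4% of all genes) and 4 lower (17.4%, against 26.5%).

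Among cell cycle genes the largest changes were in inhibitors and a D-type cyclin. Cdkn1a, which encodes p21, stood at 266, 242 and 256 TPM in the starting cells and 51.8, 51.9 and 50.8 TPM in the withdrawn cells and fell by 2.28 (SE 0.07), as Cdkn1c rose. Ccnd2 stood at 0.257, 0.662 and 0.133 TPM before withdrawal and 8.15, 10.1 and 8.63 TPM after it and rose by 2.90 (SE 0.15). Ccnd1, at 129 TPM in the starting cells, was lower by 0.30 (SE 0.08). Ccne1, whose product partners CDK2, rose by 0.66 (SE 0.07), from 275 to 434 TPM, while Cdk4 was not called (-0.07, SE 0.08). Myc, which STAT3 and WNT are known to induce, rose after LIF and 2i were taken away, from 5.64, 4.1 and 4.45 TPM to 59.7, 57.3 and 49.5 TPM (3.31, SE 0.10). Mycn rose by 0.83 (SE 0.09) and Mycl fell by 1.24 (SE 0.12). Among p53 targets Cdkn1a and Phlda3 fell, with differences of -2.28 (SE 0.07) and -1.23 (SE 0.09), and Pmaip1, the apoptotic gene Noxa, rose by 2.41 (SE 0.33). Trp53 and Mdm2 were not called (0.18, SE 0.08, and 0.34, SE 0.18). Trp53 was called higher with a correction for GC content and length (0.31, limma adjusted p = 2.35e-05).

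Epithelial and mesenchymal genes each included changes in both directions. Of 14 tested cadherin, epithelial and mesenchymal genes 6 were higher (42.9%, against 25.4% of all genes) and 4 lower (28.6%, against 26.5%). A further 4 were not called. Cdh1, E-cadherin, stood at 269, 247 and 258 TPM in the starting cells and 251, 260.5 and 239 TPM in the withdrawn cells and was not called (-0.04, SE 0.06). Esrp1, an epithelial splicing regulator, stood at 1.45, 1.37 and 1.36 TPM before withdrawal and 29.2, 27.7 and 27.1 TPM after it. Epcam, an epithelial adhesion molecule, stood at 59.5, 58 and 60.9 TPM before withdrawal and 265, 288 and 269 TPM after it. Esrp1 and Epcam rose by 3.60 (SE 0.16) and 2.18 (SE 0.09) with no overlap between groups. Vim, the mesenchymal intermediate filament gene, fell from 302 to 136 TPM (-1.14, SE 0.06), fibronectin (Fn1) fell from 610.0 to 169 TPM (-1.84, SE 0.09), and Snai1, a repressor of Cdh1, fell by 1.70 (SE 0.14). Cdh2, N-cadherin, was higher by 0.57 (SE 0.13) but stood at only 2.21 TPM. Esrp2 went against Esrp1 and fell by 1.57 (SE 0.18). Of the tight junction list 8 of 15 were higher (53.3%, against 25.4% of all genes) and 2 lower (13.3%, against 26.5%). Cldn6 and the scaffold Cgn led the rises (1.72, SE 0.13, and 1.58, SE 0.08), and Cldn4 led the falls (-0.75, SE 0.10).

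Basement membrane genes included large changes in both directions. Lama1, an alpha chain of laminin, stood at 77.5, 65.6 and 74.6 TPM in the starting cells and 3.37, 3.68 and 3.05 TPM in the withdrawn cells. Lamb1, a beta chain, stood at 10.9, 9.98 and 10.05 TPM before withdrawal and 39.4, 38.2 and 31.8 TPM after it, and Lamb2, the alternative beta chain, went from 38.7 ± 4.02 to 8.56 ± 0.349 TPM. Lama1 and Lamb2 fell, with differences of -4.07 (SE 0.10) and -2.05 (SE 0.13), and Lamb1 rose by 1.72 (SE 0.10). The collagen IV chains Col4a1 and Col4a2 rose by 2.18 (SE 0.07) and 1.23 (SE 0.11), and stood higher at 12 h (65.8 and 20.6 TPM) than at 24 h (40.0 and 13.8 TPM). Of laminin and collagen genes 10 of 24 tested were higher (41.7%, against 25.4% of all genes) and 9 lower (37.5%, against 26.5%). With a correction for GC content and length 5 were lower. Of 17 tested integrin genes 6 were higher (35.3%, against 25.4% of all genes), 2 lower (11.8%, against 26.5%) and 9 not called. Itga3, Itga6 and Itgb1, subunits of laminin receptors, rose by 2.66 (SE 0.07), 1.21 (SE 0.19) and 1.26 (SE 0.18), and Itga9 rose by 2.27 (SE 0.09). Itgb5 and Itgb4 fell, with differences of -0.46 (SE 0.11) and -0.71 (SE 0.13).

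Ephrins and Eph receptors, which guide contact between cells, mostly fell. Efna3 stood at 29.3, 26.5 and 28.6 TPM in the starting cells and 5.75, 6.46 and 5.56 TPM in the withdrawn cells and fell by 2.07 (SE 0.15), and Efnb1, Efna4, Epha4 and Ephb3 fell, with differences of -1.77 (SE 0.14), -1.57 (SE 0.17), -1.5 (SE 0.27) and -1.47 (SE 0.09). Efnb2, a transmembrane ephrin, stood at 0.474, 0.517 and 0.698 TPM before withdrawal and 24.6, 25.1 and 21.9 TPM after it and rose by 3.99 (SE 0.14). Epha1 and Epha2 also rose (1.98, SE 0.11, and 0.51, SE 0.08). In this list 9 of 15 tested members were lower, against 26.5% of all genes, and the median was -0.77. Among calcium and sugar binding proteins, S100a6 and Lgals3, galectin-3, were at 179 and 236 TPM at 12 h but 75 and 92.5 TPM at 24 h, still 3.36 (SE 0.13) and 2.93 (SE 0.09) above the start. S100a13 and S100a1 fell, with differences of -2.85 (SE 0.14) and -2.37 (SE 0.18). Of the antigen presentation list 8 of 12 were higher (66.7%, against 25.4% of all genes) and 1 lower. H2-D1 and H2-M3 rose by 0.88 (SE 0.11) and 1.44 (SE 0.15), H2-M3 to only 2.06 TPM. With a filter at a mean of 5 TPM 4 were higher. The lower count was 0 without ESC_0h replicate 2 or 3 or noRA_24h replicate 1 or 2. H2 genes are near-identical, so reads may be split between them.

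**Figure D4:**
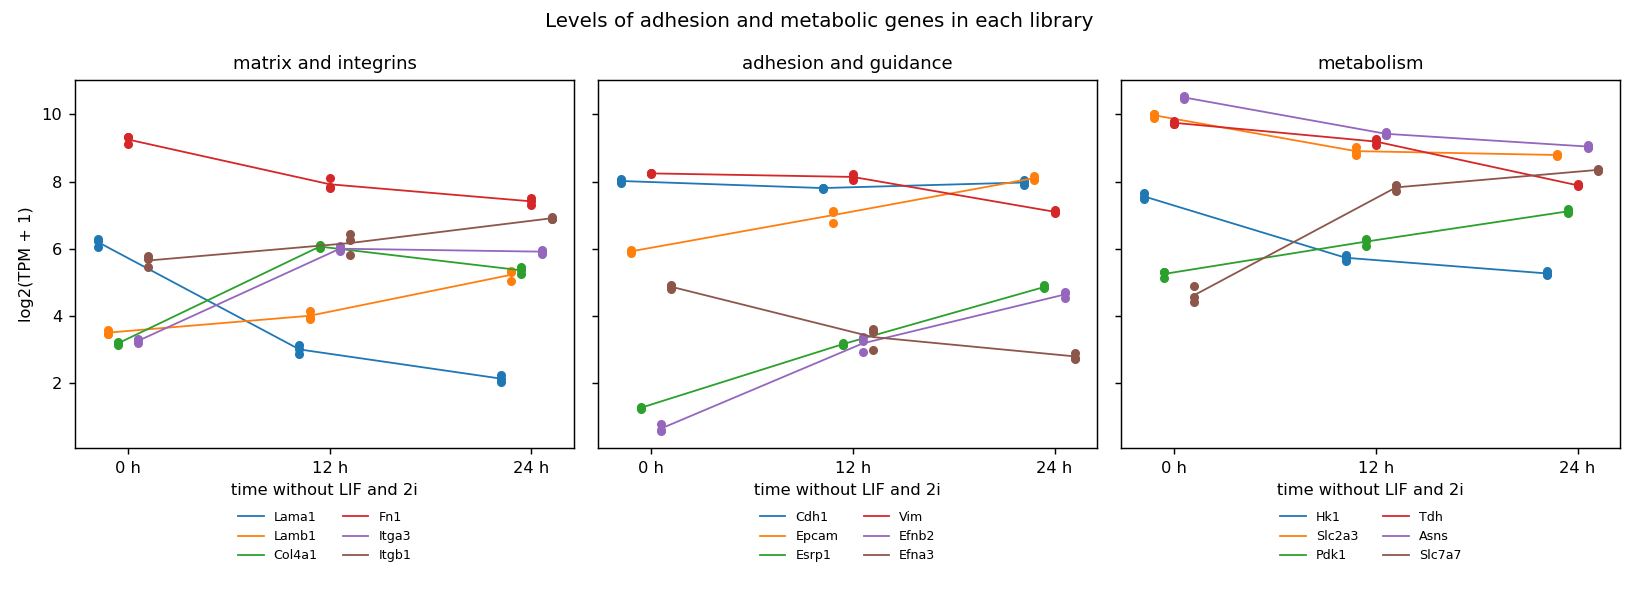
Levels as log2(TPM + 1) (y axis) of matrix and integrin, adhesion and guidance, and metabolic genes at 0 h, 12 h and 24 h without LIF and 2i (x axis), with 1 point per library and lines through the means of 3. Lama1 and Efna3 decline while Lamb1, Itga3, Epcam and Efnb2 climb, Cdh1 ends -0.04 from its start, and Hk1, Slc2a3 and Tdh decline as Pdk1 and Slc7a7 climb.

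Genes of sugar metabolism moved in both directions. Hk1, a hexokinase that traps glucose in the cell, stood at 200.3, 179 and 184 TPM in the starting cells and 36.8, 39 and 36.2 TPM in the withdrawn cells. Slc2a3, the glucose transporter GLUT3, stood at 1034, 944 and 1042 TPM before withdrawal and 443, 448 and 434 TPM after it. Pdk1, which switches off pyruvate dehydrogenase, stood at 34.1, 38.5 and 38.5 TPM before withdrawal and 132, 145 and 134 TPM after it. Hk1 and Slc2a3 fell, with differences of -2.30 (SE 0.08) and -1.19 (SE 0.07), Pdk1 rose by 1.86 (SE 0.09), and no library of these genes crossed between groups. The other entry genes Hk2 and Slc2a1 had differences of -0.69 (SE 0.06) and 0.10 (SE 0.08), the latter not called. Slc2a1 was called higher with a correction for GC content and length (0.24, limma adjusted p = 3.49e-05). The central enzyme genes Gapdh, Pkm and Eno1 were not called (-0.14, SE 0.06, 0.03, SE 0.07, and 0.05, SE 0.07), and Ldha rose by 0.26 (SE 0.07). With a correction for GC content and length Pkm and Eno1 were called higher (0.30 and 0.31, limma adjusted p = 7.22e-06 and 9.03e-06), as they were with quantile normalization, and Gapdh was called lower in 4 alternatives (limma adjusted p = 0.0033 to 0.0464). Eno3 rose by 1.55 (SE 0.11), from 33.9 to 101 TPM. Across the list 6 of 20 were higher (30%, against 25.4% of all genes) and 8 lower (40%, against 26.5%). After a correction for GC content and length 10 were higher and 7 lower. The lactate carrier Slc16a3 and the pyruvate carrier subunit Mpc1 rose by 0.95 (SE 0.07) and 0.98 (SE 0.10), and Pck2, a mitochondrial enzyme, fell by 1.25 (SE 0.10).

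Genes of the respiratory chain moved little but widely in 1 direction. Of 72 nuclear genes of complexes I to V, 44 were lower (61.1%, against 26.5% of all genes) and 2 higher. Their median was -0.25 and their range -0.77 to 0.51. Atp5d, a subunit of ATP synthase, and Uqcrc1, of complex III, fell, with differences of -0.77 (SE 0.13) and -0.59 (SE 0.09). The count was 30 lower with median-of-ratios scaling and was 55 with a correction for GC content and length. Of 13 mitochondrially encoded subunits 11 were not called, and mt-Nd5 and mt-Nd6 were lower (-0.88, SE 0.32, and -0.85, SE 0.29), or 6 genes with a correction for GC content and length. These 2 genes overlap on opposite strands, and strand is not stated, so they cannot be read separately. Both calls were lost without ESC_0h replicate 3 (limma adjusted p = 0.142 and 0.103) or noRA_24h replicate 2 (0.121 and 0.0861), and that of mt-Nd5 also without ESC_0h replicate 1 (0.0652) or noRA_24h replicate 1 (0.0629). Genes of cytosolic ribosomal proteins have many near-identical copies in the genome. Of 80 of these genes 30 were lower (37.5%, against 26.5% of all genes) and 2 higher, with a median of -0.10. The lower count was 14 with median-of-ratios scaling and 44 with a correction for GC content and length, so it turned on the scaling.

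Of 21 genes of threonine, serine and one-carbon metabolism 7 were lower (33.3%, against 26.5% of all genes) and 4 higher. Tdh, threonine dehydrogenase, with which mouse ESCs break down threonine, stood at 899, 839 and 843 TPM in the starting cells and 232, 235 and 239.9 TPM in the withdrawn cells and fell by 1.86 (SE 0.08). Gcat, the next enzyme, went from 127 ± 9.34 to 66.9 ± 3.15 TPM and fell by 0.91 (SE 0.11). Mat2a, which makes the methyl donor S-adenosylmethionine, rose by 1.29 (SE 0.15), from 149 to 363 TPM. Asns, asparagine synthetase and a target of the stress factor ATF4, stood at 1465, 1482 and 1409 TPM before withdrawal and 515, 541 and 522 TPM after it and fell by 1.46 (SE 0.05). Of 21 ATF4 list members 11 were lower (52.4%, against 26.5% of all genes) and 4 were higher, led by Slc7a3. Amino acid carriers moved in both directions. Slc7a7, which exports cationic amino acids in exchange for neutral ones, stood at 28.7, 22.5 and 20.1 TPM before withdrawal and 332, 327 and 315 TPM after it, and Slc7a3, a cationic amino acid importer, stood at 62, 62 and 56.2 TPM before withdrawal and 405, 449 and 443 TPM after it. These rose by 3.73 (SE 0.11) and 2.83 (SE 0.07), and Slc38a2, a glutamine carrier, rose by 2.00 (SE 0.17). Slc1a5, Slc7a5 and Slc38a7 fell, with differences of -0.55 (SE 0.07), -0.40 (SE 0.09) and -1.37 (SE 0.12). Of the sterol pathway 12 of 22 members were lower (54.5%, against 26.5% of all genes), led by Tm7sf2 and Dhcr7 (-0.83, SE 0.17, and -0.68, SE 0.16). Its regulator Srebf2 fell by 0.49 (SE 0.08). In fatty acid synthesis the regulator Srebf1 and the desaturase Scd2 fell, with differences of -1.08 (SE 0.08) and -0.77 (SE 0.05).

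Most lysosomal genes fell. Hexa, a hexosaminidase subunit, stood at 216, 196 and 200.02 TPM in the starting cells and 46.4, 48.9 and 42.9 TPM in the withdrawn cells. Ctsa, a protective lysosomal protease, stood at 153, 140.4 and 142 TPM before withdrawal and 42.6, 40.6 and 37.7 TPM after it. Tfeb, a transcription factor that drives lysosomal genes, stood at 74.1, 60.1 and 67.3 TPM before withdrawal and 8.9, 9.27 and 8.03 TPM after it. All withdrawn libraries of these genes were below all starting libraries, with differences of -2.12 (SE 0.09), -1.82 (SE 0.15) and -2.80 (SE 0.11). Of 28 members 21 were lower (75%, against 26.5% of all genes), 10 of them by 2-fold or more (6.33% of all genes), and the median was -0.73. Mitf, of the same factor family as Tfeb, fell by 2.09 (SE 0.34), while Tfe3, whose product leaves the nucleus when ESCs exit the naive state, rose in its transcript by 0.52 (SE 0.10). Flcn, part of the complex that keeps TFE3 in the cytoplasm, fell by 0.48 (SE 0.08). Its partners Fnip1 and Fnip2 had differences of -0.75 (SE 0.50) (not called) and 0.73 (SE 0.16). Fnip1 was called lower with a correction for GC content and length (-1.03, limma adjusted p = 0.00197). The membrane protein genes Lamp1 and Lamp2 fell, with differences of -0.53 (SE 0.07) and -1.55 (SE 0.42), and the cathepsin genes Ctsb and Ctsd had differences of -1.56 (SE 0.07) and -0.81 (SE 0.09). Ctsz was not called (0.00, SE 0.08).

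**Figure D5:**
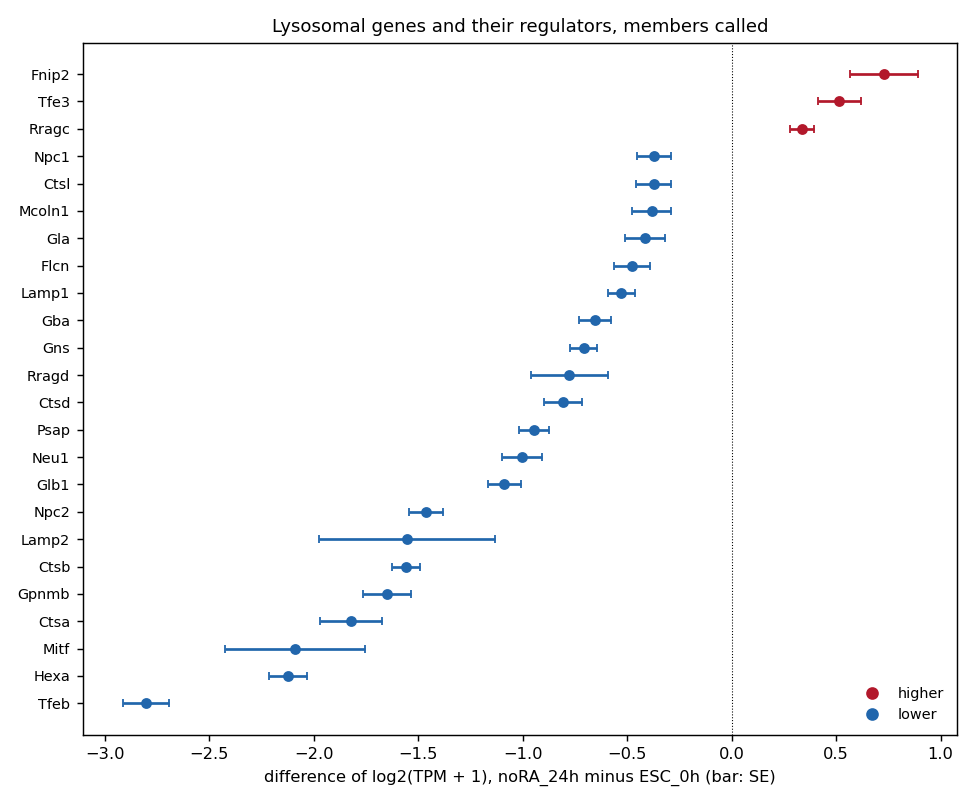
Difference of log2(TPM + 1), withdrawn minus starting cells (x axis), with its SE as a bar, for the 24 lysosomal genes and regulators that were called (y axis), blue where lower and red where higher. Tfeb at -2.80 and Hexa at -2.12 lie lowest, and Rragc, Tfe3 and Fnip2 are the 3 members called higher, Rragc not so with a correction for GC content and length (limma adjusted p = 0.164).

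Markers of germ layers and other cell types were checked as whole lists. Of 14 streak and mesoderm markers 7 passed the filter, and their summed level was 22.5 to 25.8 TPM before and 16.1 to 17.4 TPM after. T, or Brachyury, which WNT induces, was already present at 9.23, 7.83 and 8.12 TPM in the starting cells and stood at 0, 0.162 and 0.192 TPM after withdrawal. Gsc went from 3.75, 2.83 and 3.07 TPM to listed values of 0, 0 and 0 TPM. Both streak genes were thus lower after withdrawal, while Eomes, at 7.08 to 9.76 TPM, was higher by 0.41 (SE 0.11), a call lost with quantile normalization (limma adjusted p = 0.102). The 13 trophoblast markers summed to 146 to 159 TPM before and 82.4 to 83.2 TPM after. Of 11 tested, 6 were lower (54.5%, against 26.5% of all genes) and 4 higher (36.4%, against 25.4%). Tfap2c fell by 3.72 (SE 0.11), from 44.3 to 2.46 TPM, and Gata2 went from 8.36, 9.07 and 8.02 TPM to 0, 0 and 0.148 TPM and Cdx2 from 6.54, 5.54 and 4.86 TPM to 0, 0.239 and 0.319 TPM. Among the 4 higher members the largest rise was 1.64, and that of the keratin gene Krt18 was 1.17 (SE 0.11). The 16 endoderm markers summed to 299 to 331 TPM before and 272 to 275 TPM after, most of it from Sparc (224 and 224 TPM). Of 15 tested members 4 were lower (26.7%, against 26.5% of all genes), led by Lama1 (-4.07), and 2 were higher, Col4a1 (2.18) and Gata6 (0.47). The defining endoderm factors Gata6 and Sox17 stood at 1.27 and 0.157 TPM in the withdrawn cells. The call of Gata6 was lost with quantile normalization or without ESC_0h replicate 2 or noRA_24h replicate 1 (limma adjusted p = 0.0553 to 0.212). Of 16 neural markers 5 passed the filter, Ncam1, Nes, Sox1 and Tubb3 lower and Pax6 higher, at 1.05 TPM, and the list summed to 69.1 to 71.7 TPM before and 43.6 to 44.2 TPM after. The 12 fibroblast markers summed to 18 to 21.3 TPM and then 25.6 to 30.1 TPM, the largest part of the latter from Thy1 (13.3 TPM), and Col3a1, Postn, Lum and Twist2 did not pass the filter. None of 14 genes of the 2-cell-like state did either. The part of such cells in the changes above was not tested.

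Hox genes, which pattern the body axis, were low in the starting cells, and part of them were lower after withdrawal. Of 39 Hox genes 29 passed the filter. Of these 14 were lower (48.3%, against 26.5% of all genes), 8 of them of the Hoxc cluster, 15 were not called and 0 were higher. The filter spans all 15 time course libraries, and some genes not called were listed at or near 0 TPM in both groups. With a filter at a mean of 5 TPM, which fewer genes pass, 3 were lower. Hoxc13 stood at 8.9, 9.6 and 10.8 TPM in the starting cells and 2.18, 1.44 and 1.49 TPM in the withdrawn cells, with no overlap. Hoxc4 fell by 1.69 (SE 0.16). The highest mean of any Hox gene was 9.77 TPM, of Hoxc13, before withdrawal.

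The largest changes of all named genes included several outside these groups. Enpp3, an ectonucleotidase, stood at 0.62, 0.331 and 0.705 TPM in the starting cells and 75.2, 74.2 and 74.5 TPM in the withdrawn cells. Car4, a membrane carbonic anhydrase, was at 0, 0.266 and 0 TPM at 0 h, 5.72, 6.16 and 5.88 TPM at 12 h and 34.7, 36 and 36.7 TPM at 24 h. Emb, embigin, a chaperone of lactate carriers, stood at 6.24, 7.27 and 6.07 TPM before withdrawal and 143, 154 and 158 TPM after it. Enpp3, Car4 and Emb rose by 5.61 (SE 0.13), 5.09 (SE 0.10) and 4.34 (SE 0.17), and Myrf, Capn3 and Enox1 rose by 4.88 (SE 0.09), 4.62 (SE 0.09) and 5.36 (SE 0.24). The widest error among the 10 largest rises was that of Enox1. On the other side, Trpm1, a cation channel, stood at 139, 157 and 139.5 TPM in the starting cells and 0.859, 0.51 and 0.519 TPM in the withdrawn cells, a difference of -6.49 (SE 0.14). Pglyrp1, a peptidoglycan recognition protein, the homeobox gene Tlx2, the troponin gene Tnni1 and Ly6g6e fell, with differences of -5.18 (SE 0.14), -4.72 (SE 0.16), -4.21 (SE 0.20) and -4.66 (SE 0.20). Tnni1 was at 0.368 TPM at 12 h, below its 1.11 TPM at 24 h.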

How the data were processed

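Polyadenylated RNA from ESCs was sequenced as paired reads, per the labels' protocols. The tables, per the submitters' processing notes and the file headers, came from HISAT2 and StringTie on mm10, and give for each gene a TPM, an FPKM and a mean read coverage deposited by the authors. Versions of these tools and strandedness: not given in the sources used here. Aligned sequence per library was estimated from the most common ratio of coverage to FPKM, which 11.5 to 12.2% of genes shared in the 6 libraries compared. This estimate was 2.96 to 3.39 gigabases in these 6 libraries. No read counts are held in the files, so a gene's own counting error is unknown. Samples were grouped by title. TPM was transformed as log2(TPM + 1), genes with 1 TPM or more in at least 3 of 15 time course libraries were kept, and limma 3.58.1 (R 4.3.3) fitted all 5 time course groups in 1 model with trended empirical Bayes moderation, so that the other 9 libraries share in the estimate of spread. A two-sided Benjamini-Hochberg adjusted p below 0.05 over all 13948 genes was a call. The 6 libraries of the Cyp26a1 comparison were not used. The scripts were tested on simulated data.

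The members and the 54 gene lists were chosen with earlier results of these data known, and list counts are read against all genes with no test of the list. Named genes are the 10 largest rises and falls with no overlap between groups, predicted models left out, up to 6 members of each list (the largest changes each way and abundant genes not called), Otx2, Pou3f1 and Tfcp2l1, and members that went against their list. Further members were named after their values were seen. Some genes that the rule names are not reported here. Alternatives were other pseudocounts, filters, scalings, FPKM in place of TPM, other fits and leaving out each library. Gene coordinates are those of the deposited files. Promoter windows came from RefSeq.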

Additional observations from a re-analysis of the deposited data

How the results depend on the processing

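Under 18 alternatives the counts of genes higher and lower stayed within 1.5 times of 3547 and 3697, from 2430 and 2911 with a filter at a mean of 5 TPM to 4968 and 4470 with the axis of differences within groups as a covariate. The counts at 2-fold or more moved further only with that filter, to 650 higher and 569 lower, since fewer genes were tested. Leaving out each library in turn gave 2975 to 3294 higher and 3295 to 3545 lower, and 1064 to 1205 and 864 to 948 at 2-fold or more. Replicate numbers were treated as shared names only: deviations of same-numbered libraries correlated at r = 0.037, 0.135 and 0.283 across genes, ESC_0h replicate 1 being closer to noRA_24h replicate 2 (r = 0.193). Counts with the number as a replicate block were 3304 higher and 3518 lower, and 1121 and 879 at 2-fold. Without noRA_12h replicates 1 and 2 and RA_24h replicates 2 and 3, which lie far from their groups, an alternative chosen after seeing the data, 4636 were higher and 4211 lower. Of 106 counts of list members 56 stayed within 1.5 times in every alternative, and many of the others are counts of 5 or fewer. No named gene reversed its direction, and 13 lost their call in at least 1 alternative. Of 36 named genes not called, only 18 stayed so in every alternative: Cbx7, Dnmt1, Eed, Eno1, Etv5, Ezh2, Fnip1, Gapdh, Gbx2, Lrp6, Mdm2, Nodal, Pkm, Slc2a1, Sox2, Tead2, Trp53 and Zfp42 each gained a call in at least 1, 12 of them with the GC content and length correction. No read counts were used, so changes of genes near 1 TPM rest on unknown depth.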

Other observations

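Some genes stood outside the range of both groups at 12 h, so that the comparison of 0 h with 24 h shows little of their course. By 24 h some were near their level at 0 h, such as Sparc, while others, such as Ddit3, were still called lower. These levels are a description with no test, and the noRA_12h libraries differed among themselves more than those of the other groups without added retinoic acid (r of log2(TPM + 1) from 0.966 to 0.991). Over all 13948 genes the 3 libraries at 12 h lay below all 6 libraries at 0 h and 24 h in 6.41% and above them in 10.9%. In the ATF4 stress response list 16 of 21 members lay below both. Ddit3, the stress factor CHOP, stood at 69.1, 75.3 and 66.5 TPM at 0 h, 9.9, 10.9 and 11.8 TPM at 12 h and 45.9, 43.6 and 47.8 TPM at 24 h. Ddit4, an inhibitor of mTORC1, stood at 336, 303 and 322 TPM, 62.6, 72.1 and 71.6 TPM and 276, 275 and 280.2 TPM at these times. Chac1, which degrades glutathione, stood at 24.5, 23.2 and 22.3 TPM, 6.54, 7.63 and 6.03 TPM and 35.1, 32.3 and 31.7 TPM. In each of these genes the 12 h libraries were the lowest. Of the sterol synthesis list 14 of 22 members and of the glycolysis list 12 of 20 also lay below both, such as the sterol enzyme gene Msmo1 with means of 104, 46 and 114 TPM.

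Others peaked at 12 h. Kdr, a VEGF receptor, had means of 3.01, 16.5 and 3.23 TPM at 0 h, 12 h and 24 h, Wnt6 had 1.84, 11.9 and 3.31 TPM, and Sparc, a matrix protein, had 224, 467 and 224 TPM. Ier3, an immediate early gene, went the other way, with 57.7, 10.5 and 75.5 TPM. These genes were singled out after their values were seen, by a mean at 12 h at least 2-fold outside both others.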
